A study of Ginkgo biloba with 6 samples.

Results

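The low set consists of 3 Ginkgo biloba leaf genes, Gb_21480, Gb_09688 and Gb_33257, whose transcript level was low in 1 truncated and 1 control library and higher in the other 4 libraries of the study. They were chosen by their measured levels. A gene belonged to the set when the higher of its values in truncated C and control B lay at least 1 below the lowest of its values in truncated A, truncated B, control A and control C, on the log2(FPKM + 1) scale. FPKM is a count of sequenced fragments divided by transcript length and by the size of the mapped library. The rule took Gb IDs that averaged 1 FPKM or more across the libraries and left out the 100 most abundant ones. Of the 15688 IDs it could take, 3 met it, or 0.0191%. The mirrored rule, for IDs higher in the same 2 libraries, was met by 700 IDs, or 4.46%.

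The study compared leaves of truncated trees, whose trunks were cut at a height of 85 cm, with leaves of uncut control trees. The trees, 30 in each group, belonged to the cultivar Fozhi and had grown for 5 years, and both groups were sampled at the stage at which leaves are harvested. There were 3 RNA libraries per group, with the letters A to C. How many trees went into a library, and whether the libraries of a group stem from separate trees, is not stated, so a p-value covers no more than the variation among these libraries, part of which may be technical.

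Ginkgo is a gymnosperm tree grown for its leaves, which are rich in flavonoids and terpene lactones. In plant leaves generally, many transcripts are known to vary with leaf age, with light and with the time of day, and RNA from a whole leaf averages over epidermis, photosynthetic mesophyll and veins. In such bulk RNA, fewer cells of a type and less RNA per cell cannot be told apart. The expression table paired 0 of its IDs with a gene name, so that no role is given here to Gb_21480, Gb_09688 or Gb_33257, and the leaf label could not be checked against marker genes.

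Truncated C and control B also differed from the other libraries as a whole. Over the IDs the rule could take, the median level was 3.24 on the log2(FPKM + 1) scale in each of them and 2.78 to 3.004 in the other 4. IDs reaching 1 FPKM numbered 16705 in truncated C and 16218 in control B, against 14912 to 15599 in the others. A fall in these 2 libraries therefore ran against the general shift. The summed FPKM lay between 655395 and 738322, and depth relative to control A, read from the spacing of low values, was 1.09 in truncated C, 0.940 in control B and 0.936 to 1 in the others. The absolute number of fragments was not given, so no counting interval is stated for any value. The part of this shift in the low set was not tested.

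Gb_21480 showed the widest separation. Its level was 51.41 FPKM in truncated A, 112.09 FPKM in truncated B and 1.77 FPKM in truncated C, against 23.92 FPKM in control A, 0.15 FPKM in control B and 29.87 FPKM in control C. Both groups thus held 2 libraries with a clear signal and 1 library with hardly any, and the ranges of the groups overlapped. Even the lowest of the other 4 libraries was 13.5 times the level in truncated C. The gap was 3.17 on the log2(FPKM + 1) scale, wider than that of any of the 700 IDs with the mirrored pattern, whose widest gap was 2.81. Relative to other genes in the same library, Gb_21480 lay above 97.1% of the 26044 listed IDs in truncated B and above 93.2% in truncated A, but above only 43.9% in truncated C. Among controls it lay above 88.7% of IDs in control C and 86.6% in control A, but above only 19.2% in control B. It was a moderately abundant leaf transcript in 4 libraries and a weak one in the other 2.

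Gb_09688 was the weakest of the set, with a mean of 5.53 FPKM. It stood at 5.60 FPKM in truncated A, 9.82 FPKM in truncated B and 1.86 FPKM in truncated C, against 6.59 FPKM in control A, 1.03 FPKM in control B and 8.29 FPKM in control C. The 4 higher libraries lay within 1.75-fold of each other, where the median of all IDs the rule could take was 1.60-fold. The groups interleaved: truncated B was the highest and truncated A the lowest of the 4. The lowest of these 4 was 3.01 times the level in truncated C, and the gap was 1.21.

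Gb_33257 had the narrowest gap, 1.15, and kept an appreciable level in every library. Its values were 14.74 FPKM in truncated A, 26.03 FPKM in truncated B and 6.07 FPKM in truncated C, against 28.68 FPKM in control A, 5.08 FPKM in control B and 21.25 FPKM in control C. Here control A, not truncated B, was the highest library. The lowest of the 4 higher libraries, truncated A, was 2.43 times the level in truncated C. Even at its lowest, in control B, Gb_33257 lay above 61.6% of all listed IDs, so that its fall was a partial one.

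**Figure D1:**
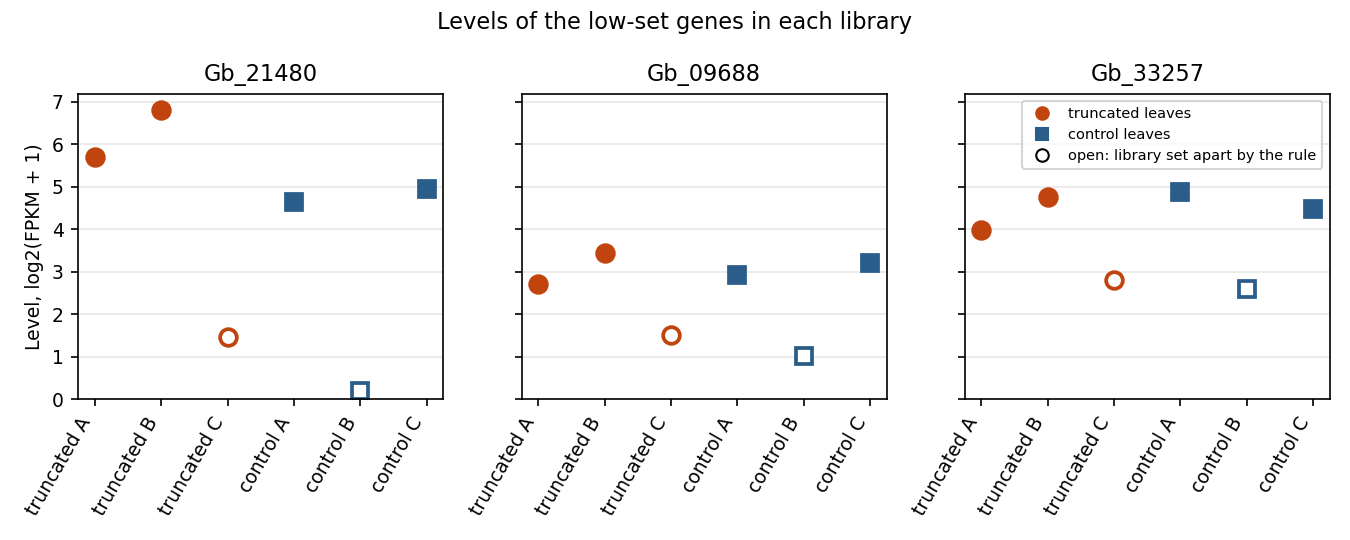
Level of each low-set gene on the log2(FPKM + 1) scale in the 3 truncated libraries (circles) and the 3 control libraries (squares), 1 point per library, with truncated C and control B drawn open. The open points lie lowest in every panel, as the rule requires, by 3.17 for Gb_21480 and by 1.21 and 1.15 for Gb_09688 and Gb_33257.

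The 3 genes shared an order that the rule did not set. Control B was lower than truncated C in all 3, by 11.8-fold in FPKM for Gb_21480, 1.81-fold for Gb_09688 and 1.19-fold for Gb_33257. Over all IDs the rule could take, control B was the lower of these 2 libraries in 50.8%, and over the 1774 IDs in which both lay below the other 4 it was the lower in 39.6%. The ratio for Gb_21480 rests on a value of 0.15 FPKM, and the number of fragments behind that value is unknown. Among the 4 higher libraries, the highest level was 4.69 times the lowest for Gb_21480, 1.95 times for Gb_33257 and 1.75 times for Gb_09688, where the median of all IDs the rule could take was 1.60. A spread of 4.69-fold or more among these 4 libraries was seen in 6.09% of those IDs, one of 1.95-fold or more in 32.6% and one of 1.75-fold or more in 40.9%. Gb_21480 was thus uneven also among the libraries in which it was well detected, and more so than Gb_33257 and Gb_09688, which both lay somewhat above the median ID.

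Together, the 3 genes summed to 71.8 FPKM in truncated A, 147.9 FPKM in truncated B and 9.7 FPKM in truncated C, against 59.2 FPKM in control A, 6.26 FPKM in control B and 59.4 FPKM in control C. Most of the sum in truncated B came from Gb_21480. The set never held more than 0.02004% of the summed FPKM of a library.

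Gb_13908 and Gb_25277 lay just outside the threshold. Gb_13908 had a gap of 0.93, with 10.87 FPKM in truncated A, 12.27 FPKM in truncated B and 0.19 FPKM in truncated C, against 10.34 FPKM in control A, 4.96 FPKM in control B and 23.76 FPKM in control C. It was far lower in truncated C than in control B, the reverse of the order seen in the 3 members. Gb_25277 had a gap of 0.79, with 5.51 FPKM in truncated A, 6.15 FPKM in truncated B and 1.5 FPKM in truncated C, against 5.24 FPKM in control A, 2.27 FPKM in control B and 4.67 FPKM in control C. Its 4 higher libraries agreed within 1.32-fold.

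Below the threshold the low pattern was common but shallow. Truncated C and control B were both below the other 4 libraries in 1774 IDs, or 11.3%, and both above them in 5194, or 33.1%. With a gap of at least 0.5 these numbers were 30 IDs, or 0.191%, and 1901 IDs, or 12.1%. Among the 27 IDs with a gap of 0.5 to 1, truncated C was lower than control B in 19 and control B was lower in 7, with 1 tie. Truncated B was the highest of the 4 higher libraries in 15 of these 27, in 2 of the 3 members and in 55.4% of the 1774, against 24.0% of all IDs the rule could take. The numbers of IDs in each direction moved with the scaling between libraries. After scaling by the median of ratios, 3404 IDs (21.8%) lay below and 3691 (23.7%) above the other 4 libraries. Quantile scaling gave 4046 (25.8%) below and 3262 (20.8%) above. At a gap of at least 1 the 2 directions remained far apart. Median of ratios gave 4 low (0.0256%) and 511 high IDs (3.28%), and quantiles gave 5 low (0.0319%) and 437 high IDs (2.79%). These shares are of the 15601 and 15684 IDs that the rule could take after the 2 scalings. Gb_21480, Gb_09688 and Gb_33257 were among the low IDs under both scalings, with gaps of 3.34, 1.31 and 1.30 by median of ratios. Both scalings raised the number of low IDs, so that keeping the members was favoured.

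**Figure D2:**
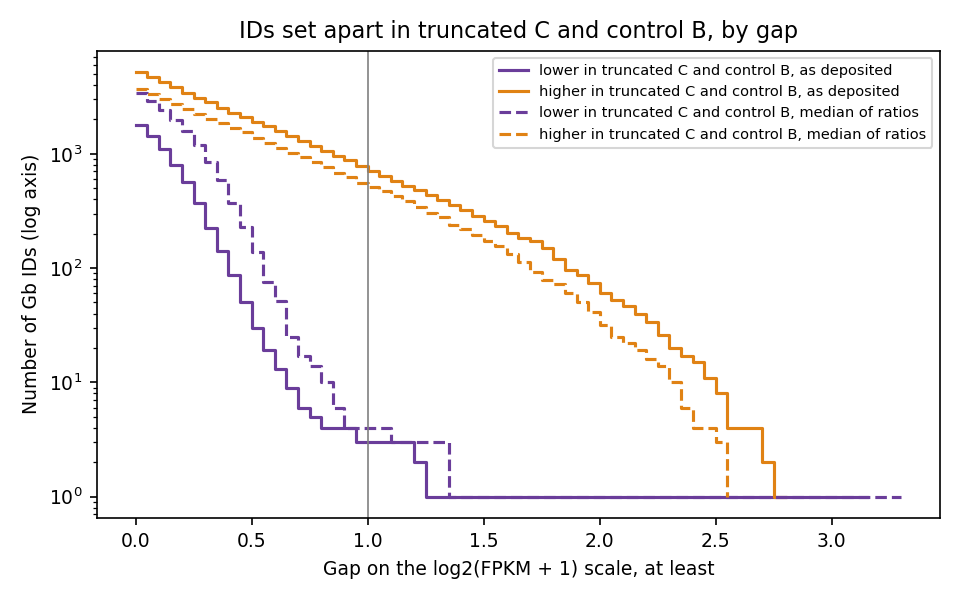
Number of Gb IDs (log axis) whose values in truncated C and control B both lay below (purple) or above (orange) the other 4 libraries by at least the gap on the horizontal axis, on the log2(FPKM + 1) scale, as deposited (solid) and after median-of-ratios scaling (dashed). At the grey line, a gap of 1, the deposited values give 3 low and 700 high IDs, and the single ID beyond 1.5 on the low side is Gb_21480.

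**Figure D3:**
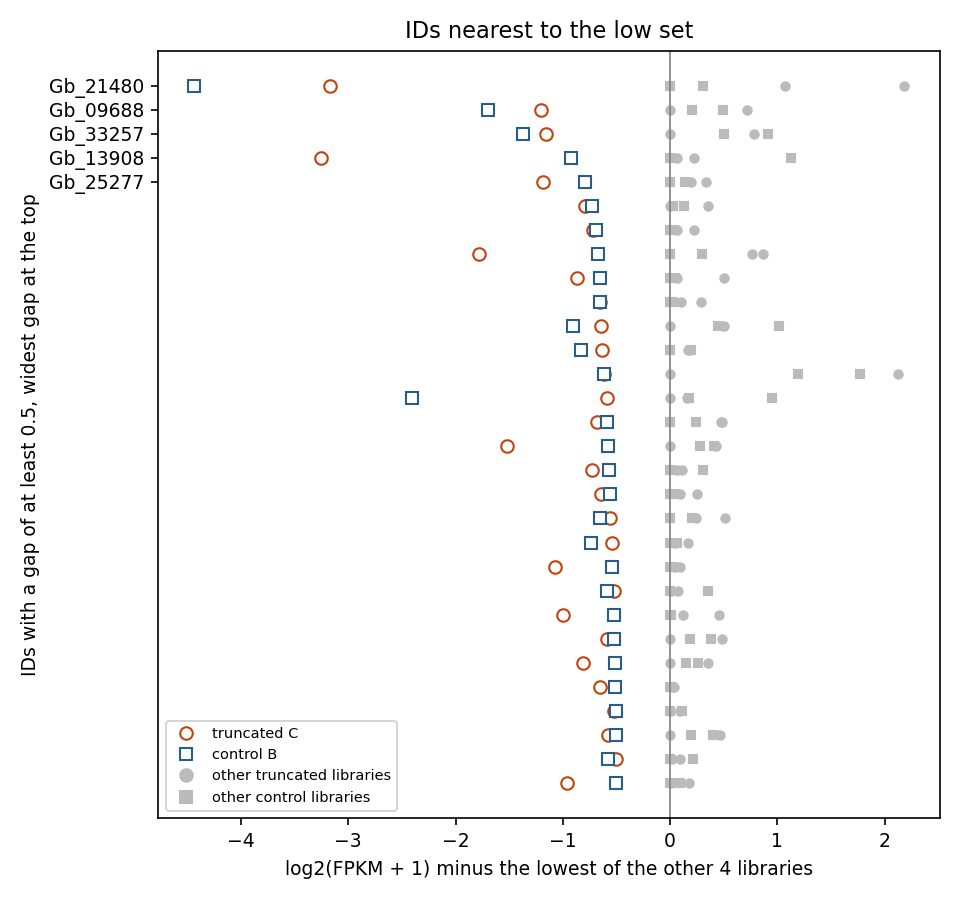
The 30 IDs with a gap of at least 0.5, widest at the top, each as the log2(FPKM + 1) level of every library minus the lowest of the 4 higher libraries, with truncated C as open circles and control B as open squares. The top 3 rows are the members, with control B leftmost, and in 19 of the other 27 rows truncated C is leftmost.

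The IDs with the most similar profiles were looked for with Pearson's r of log2(FPKM + 1) over the 6 libraries, a measure chosen after the values were seen and given as a description. It takes no account of the size of a change, and 6 points from shared libraries give high values easily: 126 of 15687 other IDs reached 0.95 with Gb_21480, 94 with Gb_09688 and 108 with Gb_33257. Among the members, r was 0.96 between Gb_21480 and Gb_09688, 0.96 between Gb_09688 and Gb_33257 and 0.90 between Gb_21480 and Gb_33257, values that the rule favours because it chose all 3 for being low in the same 2 libraries. The closest ID to Gb_21480 was Gb_07583, at r = 0.999. Gb_07583 had 47.12 FPKM in truncated A, 49.40 FPKM in truncated B and 39.16 FPKM in truncated C, against 44.71 FPKM in control A, 36.83 FPKM in control B and 45.09 FPKM in control C. It followed the order of Gb_21480 but with a gap of 0.19, where that of Gb_21480 was 3.17. The closest ID to Gb_09688 was Gb_27019 (r = 0.992, gap 0.33), and the closest to Gb_33257 was Gb_12907 (r = 0.994, gap 0.18).

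The members were not near each other in the numbering of IDs, the smallest distance being 11777. Of the 4 numbers within 2 of each member, 2 were listed for each, and none of those 6 IDs came near the threshold. Gb_09687, the number before Gb_09688, had the widest gap of them, 0.21. It was an abundant transcript, with 79.99 FPKM in truncated A, 103.31 FPKM in truncated B and 60.26 FPKM in truncated C, against 105.18 FPKM in control A, 69.19 FPKM in control B and 92.77 FPKM in control C. Gb_33256, the number before Gb_33257, was not low in these libraries, at 9.66 FPKM in truncated C and 10.49 FPKM in control B, against 7.62 to 12.65 FPKM in the other 4. Gb_33255 ran the other way, with 4.83 FPKM in truncated C and 4.17 FPKM in control B, against 2.47 to 3.96 FPKM elsewhere. The listed numbers around Gb_21480, Gb_21478 and Gb_21482, were below 1 FPKM in every library. No source used here says whether the numbering follows positions in the genome.

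The comparison of truncated with control leaves asks whether cutting back changed the leaf transcriptome, and its direction is not set by the rule, which takes 1 library from each group. None of the 3 genes passed the test, an outcome that the rule favoured in advance. By limma, 0 of the 3 had an adjusted p under 0.05, where 0% of the 16054 IDs tested did, and 0 of the 3 had an unadjusted p under 0.05, where 6.87% did. Gb_21480 averaged 55.1 ± 55.3 FPKM in truncated and 18.0 ± 15.7 FPKM in control leaves (SD, n = 3 each). Its log2 difference on the log2(FPKM + 1) scale was 1.40 ± 1.72 (SE), with an unadjusted 95% interval of -2.70 to 5.51 and a limma adjusted p of 0.9899. Gb_09688 averaged 5.76 ± 3.98 FPKM in truncated and 5.30 ± 3.80 FPKM in control leaves, a log2 difference of 0.17 ± 0.70 (SE; limma adjusted p = 0.996). Gb_33257 averaged 15.6 ± 10.01 FPKM in truncated and 18.3 ± 12.1 FPKM in control leaves, a log2 difference of -0.14 ± 0.71 (SE; limma adjusted p = 0.996). All 3 differences were smaller than their standard errors, which the rule inflates, and the median over all tested IDs was -0.05.

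The rule itself makes this comparison imprecise for its members and a pass unlikely. Each member has 1 low library in each group, so the groups cannot separate and the spread within them must be large. The residual SD was 2.74 for Gb_21480, 1.09 for Gb_09688 and 1.103 for Gb_33257, against a median of 0.31 over all tested IDs. The intervals therefore leave room for changes of several-fold in either direction. Failing the test thus does not show that cutting back left the members unchanged.

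**Figure D4:**
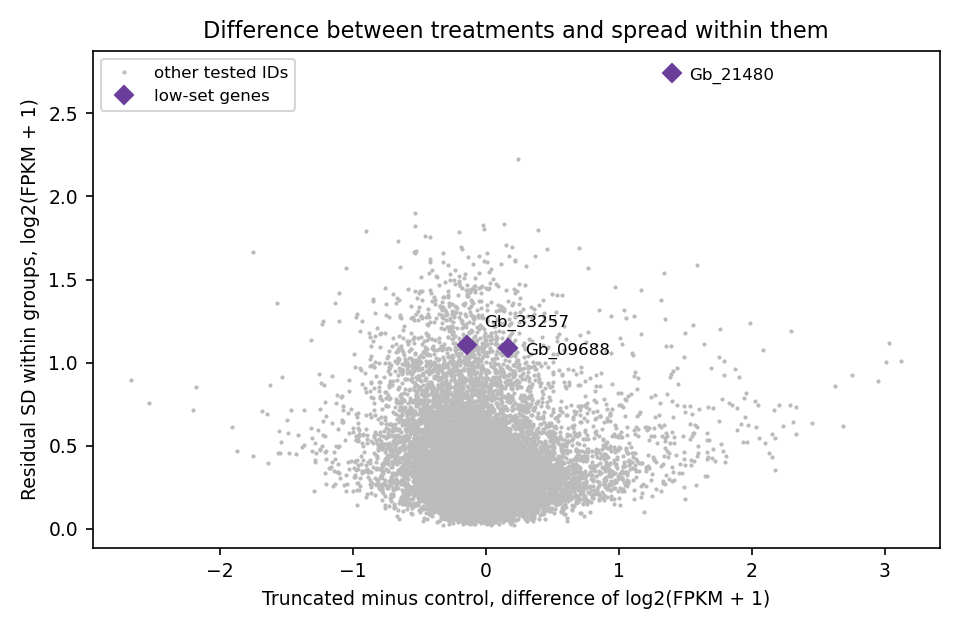
Difference in mean log2(FPKM + 1) between truncated and control leaves (horizontal) against the residual SD within groups from limma (vertical), 1 point per tested ID, with the low-set genes as diamonds. Gb_21480 has the largest SD of all, 2.74, with a difference of 1.40, and Gb_09688 and Gb_33257 sit near a difference of 0 at SDs of 1.09 and 1.103.

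Without truncated C and control B, 2 truncated and 2 control libraries remained. Gb_21480 was then higher in both truncated libraries, at 51.41 and 112.09 FPKM, than in both control libraries, at 23.92 and 29.87 FPKM. Its log2 difference was 1.47 ± 0.37 (SE), with an unadjusted 95% interval of 0.55 to 2.39. It was the 1 member of 3 with an unadjusted p under 0.05, where 8.65% of the 15452 IDs tested were in either direction, but its limma adjusted p was 0.492 and 0% of IDs passed the adjusted threshold. The rule chose the 2 libraries left out as the low ones, which favours a smaller spread among the rest. The residual SD of Gb_21480 was 0.58 without them, against 2.74 with all libraries. Its interval and unadjusted p depend on that choice and serve as a description only. Within the pair left out, all 3 members were higher in truncated C than in control B, so this order was not particular to Gb_21480. Leaving out control B alone gave Gb_21480 a log2 difference of -0.13, and leaving out truncated C alone gave 3.004. The rule fixes the direction of both shifts, since each removes the low library of 1 group only. Gb_09688 and Gb_33257 had log2 differences of 0.01 ± 0.30 and -0.32 ± 0.31 (SE) in the 4 remaining libraries, with limma adjusted p of 0.995 and 0.745.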

How the data were processed

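RNA from leaves was sequenced as 6 Illumina libraries, 3 truncated and 3 control. The authors deposited FPKM values at 2 decimals, 1 column per library, per the file headers. CASAVA 1.8, TopHat2 and RSEM appear in the submitters' processing notes, without roles. The genome build is not given in the sources used here, nor is the annotation. FPKM depends on the abundance of all other transcripts in a library, and no further scaling is recorded.

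Members were found with Python 3.11.15 and pandas 2.3.3. The members, lists and alternatives were chosen with earlier results of these data known. Groups were compared with limma 3.58.1 in R 4.3.3 on log2(FPKM + 1), which understates changes of weak genes, with a mean trend, two-sided, over all 16054 IDs averaging 1 FPKM or more and Benjamini-Hochberg adjustment (threshold 0.05). The test and the depth estimate, the most frequent ratio between libraries of IDs at 0.3 to 1.5 FPKM, were checked on simulated data. Depth is not recorded. Per-sample columns left unused numbered 0. Named were the members, the 2 IDs just outside the threshold and, chosen after the values were seen, neighbours in the numbering and the most similar profiles. Alternatives changed pseudocount, filter, gap, scaling, variance model and libraries. Gene lists by name were not computed.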

Additional observations from a re-analysis of the deposited data

How the results depend on the processing

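The set of 3 genes became 10 with a pseudocount of 0.1, 5 with quantile scaling, 30 with a gap of 0.5 and 1, Gb_21480, with a gap of 1.5. It stayed within 3 to 5 when 1 of the 4 higher libraries was left out, 5 without truncated A or without control A. A smaller pseudocount, a smaller gap and fewer higher libraries can only keep or add members. All 3 were also kept under the scalings. Median-of-ratios and quantile scaling raised the number of low IDs of any gap from 1774 to 3404 and 4046, which favours keeping members. Equal-sum scaling worked the other way, with 1237 low IDs, and could have removed some. Members at an adjusted p under 0.05 numbered 0 under all 16 alternatives to the limma fit, in each of which 0 of all IDs tested passed, so this count says nothing particular about the members. Those at an unadjusted p under 0.05 numbered 0 except 1 without control B and truncated C together, where 8.65% of all IDs were called. The main fit called 6.87% of all IDs. The smallest share was without control A, with 433 IDs higher and 226 lower in truncated leaves, of 16140 tested. The largest was without truncated C, with 868 higher and 771 lower of 15769. For 3 members, counts of 0 or 1 beside such shares say nothing particular either. Some directions turned when 1 library was left out. Removing control B or truncated C alone must lower or raise the difference of every member, since the rule chose these as the low libraries. The log2 difference of Gb_09688 ranged from -0.51 without control B to 0.69 without truncated C, and was -0.27 without truncated B. That of Gb_33257 ranged from -0.83 without control B to 0.38 without truncated C, and was 0.31 without control A and 0.10 without control C. That of Gb_21480 ranged from -0.13 without control B to 3.004 without truncated C. With the library letter as a replicate block, 0 members passed. Each letter names 1 library in each group, so the block cannot change a log2 difference, which is 1.40 for Gb_21480 in both fits. Between libraries of the same letter, deviations from the group mean had r = 0.19 (A), -0.58 (B) and -0.55 (C), and truncated C correlated best with control B (0.68), so the letters were treated as names. Without fragment counts, the precision of values near 0, such as 0.15 FPKM in control B, is unknown.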

Other observations

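The pattern was also looked for among IDs that the rule leaves out. A gap of at least 1 was reached by 0 of 266 XLOC loci with a mean of at least 1 FPKM, 0 of the 100 most abundant Gb IDs and 0 of 9651 Gb IDs with a mean under 1 FPKM. The widest gaps there were 0.61, 0.60 and 0.92. A gap of at least 0.5 was reached by 1, 1 and 5 IDs of these 3 classes. The count of 0 among Gb IDs with a mean under 1 FPKM was partly fixed by the scale. A gap of at least 1 in log2(FPKM + 1) requires at least 1 FPKM in every library other than truncated C and control B. Weak IDs without that level could not reach the gap, whatever their pattern. This count therefore does not show that the pattern was absent among weak IDs.

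With quantile scaling, the 2 IDs that joined the members were Gb_13908 and Gb_40115, and with median-of-ratios scaling Gb_13908 alone joined them. No member had the same values as another ID in every library.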
